A study of Mus musculus with 24 samples.

Results

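Conjugation enzymes attach glutathione, a sugar acid or sulfate to foreign and internal compounds, and 64 of the 55416 gene IDs measured in these mouse kidneys encode them. They were chosen by name alone, as protein-coding genes whose symbol is that of a glutathione transferase of the alpha, kappa, mu, omega, pi, theta or zeta class (GST, 22 genes), a UDP-glycosyltransferase (UGT, 21 genes) or a sulfotransferase (SULT, 21 genes), in 17 families in all. A gene was judged only where at least 6 of the 24 libraries held at least 10 normalized counts (reads per gene divided by the library's size factor). This left 41 genes, of which 20 were GST, 15 UGT and 6 SULT genes, and 25 of them averaged at least 100 normalized counts over all libraries.

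RNA was sequenced from whole kidney in 4 groups of 6 libraries, which the labels call biological replicates. The groups were PolgD257A kidneys after B-IRI, Polg+/+ kidneys after B-IRI, PolgD257A kidneys after sham surgery and Polg+/+ kidneys after sham surgery, all from littermates. B-IRI is an ischemia reperfusion injury, in which blood flow to the kidney is stopped and restored, and Polg encodes the catalytic subunit of the mitochondrial DNA polymerase. PolgD257A is a proofreading-deficient form that raises the mutation load of mitochondrial DNA, and the series asked how such mutations add to the injury. The allele is carried in the germ line, so it acts in every cell of the animal. No label states the zygosity, strain, age or sex of the mice or how long after surgery kidneys were taken, and p-values measure the spread between these libraries.

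Glutathione transferases join glutathione to reactive electrophiles, and some also reduce peroxides. UGTs transfer a sugar from a UDP sugar, mostly glucuronic acid, to drugs, bilirubin and steroids, and SULTs transfer sulfate from the donor PAPS to phenols, amines and sterols. The conjugates leave the cell through export pumps and reach urine or bile, and in the kidney most of this chemistry takes place in the proximal tubule. In human kidney, alpha class GST protein is known from the proximal and pi class protein from the distal tubule. The transcription factor NRF2 acts through antioxidant response elements, and AP-1 factors bind a related core.

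Promoter windows of 4 genes that rose after B-IRI are shown. These genes have close neighbours that differed from them in level or change. That also holds for Gsta1, Gsta2, Ugt1a9 and Ugt1a10, whose windows were searched too and are described below without their letters. The windows, taken from RefSeq on GRCm38.p6, run from 250 bases before to 50 bases after the RefSeq start of the gene and are written 5′ to 3′ on the gene's strand. In the 3 pi class windows, chr19:4037863-4038162, chr19:4042172-4042471 and chr19:4059398-4059697 on the minus strand, capitals mark the AP-1 core TGANTCA.
Gstp1: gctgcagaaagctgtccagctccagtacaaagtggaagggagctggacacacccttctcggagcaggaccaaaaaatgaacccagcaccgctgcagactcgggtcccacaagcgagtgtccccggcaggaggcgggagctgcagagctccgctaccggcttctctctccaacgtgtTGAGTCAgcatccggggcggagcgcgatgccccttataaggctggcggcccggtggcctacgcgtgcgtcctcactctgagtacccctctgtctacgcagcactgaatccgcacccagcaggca
Gstp2: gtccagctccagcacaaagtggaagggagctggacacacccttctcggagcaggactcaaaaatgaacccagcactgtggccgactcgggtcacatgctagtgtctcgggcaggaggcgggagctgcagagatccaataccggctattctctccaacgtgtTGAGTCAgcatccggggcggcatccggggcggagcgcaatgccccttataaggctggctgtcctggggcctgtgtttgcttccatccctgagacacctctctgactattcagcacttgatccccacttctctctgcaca
Gstp3: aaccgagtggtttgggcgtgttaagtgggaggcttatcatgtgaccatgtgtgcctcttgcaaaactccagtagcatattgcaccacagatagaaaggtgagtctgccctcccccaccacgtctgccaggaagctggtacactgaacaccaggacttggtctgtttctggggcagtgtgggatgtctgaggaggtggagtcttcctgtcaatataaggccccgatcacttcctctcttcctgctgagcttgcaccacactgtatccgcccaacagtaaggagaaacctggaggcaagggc
The core lay at -74 in Gstp1 and at -89 in Gstp2, counted from the RefSeq start, and these letters were not in the Gstp3 window. The Gstp2 window lies inside the gene as GENCODE M21 places it (chr19:4040285-4046023), so the annotations differ in its start. Gstp1 and Gstp2 were 76.4% identical over the columns of their alignment, Gstp1 and Gstp3 48.3%, and Gstp2 and Gstp3 43.6%. In the window of the mu class gene Gstm5, chr3:107895604-107895903 on the plus strand, capitals mark the antioxidant response element core TGACNNNGC at -42, and an AP-1 core at -176 is left in lower case.
Gstm5: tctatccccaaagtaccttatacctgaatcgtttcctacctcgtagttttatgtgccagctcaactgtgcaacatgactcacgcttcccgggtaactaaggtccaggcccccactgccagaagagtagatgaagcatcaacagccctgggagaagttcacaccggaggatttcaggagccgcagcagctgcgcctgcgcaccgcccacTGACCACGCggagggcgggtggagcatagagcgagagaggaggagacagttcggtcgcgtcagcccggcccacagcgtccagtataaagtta
All motifs were searched on both strands, and no matches overlapped in the windows shown. A RefSeq window was matched for 56 of the 64 genes, 37 of them among the 41 judged. The AP-1 core was in 8 of the 37 and in 7.81% of all 32851 windows. Of the 8, Gstm5, Gstp1, Gstp2 and Sult2b1 rose after B-IRI in both genotypes. Sult1b1, Ugt2b37 and Ugt2b38 fell in both, and Ugt1a6a passed in neither. The antioxidant response element core was in 3 of the 37 and in 12.4% of all windows. The 3 were Gsta3 and Gstm5, which rose, and Gstm7, which fell. The Gsta1 and Gsta2 windows held 0 matches to this core. Another motif, GTTAAT from the site of the factor HNF1, was in 9 of the 37 and in 7.10% of all windows. Of these 9, Gsta3, Ugt1a9 and Ugt1a10 rose in both genotypes and Ugt1a1 passed as higher in PolgD257A only. Sult1a1, Sult1d1, Ugt2a3 and Ugt3a1 fell in both, and Ugt1a6a passed in neither. The motif lay at -91 in the Ugt1a9 window and at -100 and -71 in the Ugt1a10 window. A match describes letters and is no evidence of binding.

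The libraries held 18669806 to 26341004 assigned reads in B-IRI PolgD257A, 19853485 to 25355776 in B-IRI Polg+/+, 20843184 to 25858504 in Sham PolgD257A and 16689284 to 19737994 in Sham Polg+/+, the shallowest group. The Y-linked gene Ddx3y was at 1104 to 1631 normalized counts in all 24, so every library held reads of a Y-linked gene. Proximal tubule markers of the S1 and S2 segments (7 genes) summed to 93195 to 122529 normalized counts in B-IRI PolgD257A and 141729.5 to 195477 in B-IRI Polg+/+ libraries, against 231630.1 to 299314 in Sham PolgD257A and 204809.8 to 272789 in Sham Polg+/+ libraries. These S1 and S2 markers were thus present in all groups, at lower summed levels after B-IRI. Sham Polg+/+ replicate 6 stood apart from the other libraries of its group for 6 conjugation genes. Without it the Polg+/+ changes given below would be 0.89 for Gsto1, 0.67 for Gstp2, -0.57 for Gstz1 and -0.53 for Sult1d1, all still past the threshold, and the counts in Polg+/+ would be 17 higher and 16 lower. Genes that fall in a bulk sample may reflect fewer cells of a type or less RNA per cell, and these cannot be told apart here.

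After B-IRI the conjugation genes moved in both directions. Gsta1, Gsta2, Gsta3, all 3 pi class genes, Gsto1 and the UGT1A first exons Ugt1a9 and Ugt1a10 rose in both genotypes, while Gstk1, Gstz1, Gstt2, Gstt3, Ugt2b37, Ugt2b38, both UGT3A genes and Sult1a1, Sult1b1 and Sult1d1 fell in both. In PolgD257A kidneys 33 of the 41 genes judged passed, 15 up and 18 down, against 60.4% of all 17430 genes tested (30.2% up and 30.3% down). In Polg+/+ kidneys 31 passed, 15 up and 16 down, against 41.2% of all genes (21.4% up and 19.8% down). Calls are limma adjusted p-values under 0.05, and changes are on the log2(normalized count + 1) scale with the standard error (SE). Where libraries of compared groups are said not to overlap, this describes that gene. How many of all genes separate so was not counted. The median change was -0.06 in PolgD257A, against 0.00 over all genes tested, and 0.01 in Polg+/+, against -0.01. By enzyme, 10 GST genes rose and 8 fell in PolgD257A, and 11 rose and 6 fell in Polg+/+. Of the UGT genes, 4 rose and 6 fell in PolgD257A and 3 rose and 6 fell in Polg+/+, and of the SULT genes 1 rose and 4 fell in both genotypes. Gstp3, Ugt1a1 and Ugt1a9 reached the 10 counts in B-IRI libraries only, so they had to differ to be judged, and the counts say nothing of the family as a whole.

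**Figure D1:**
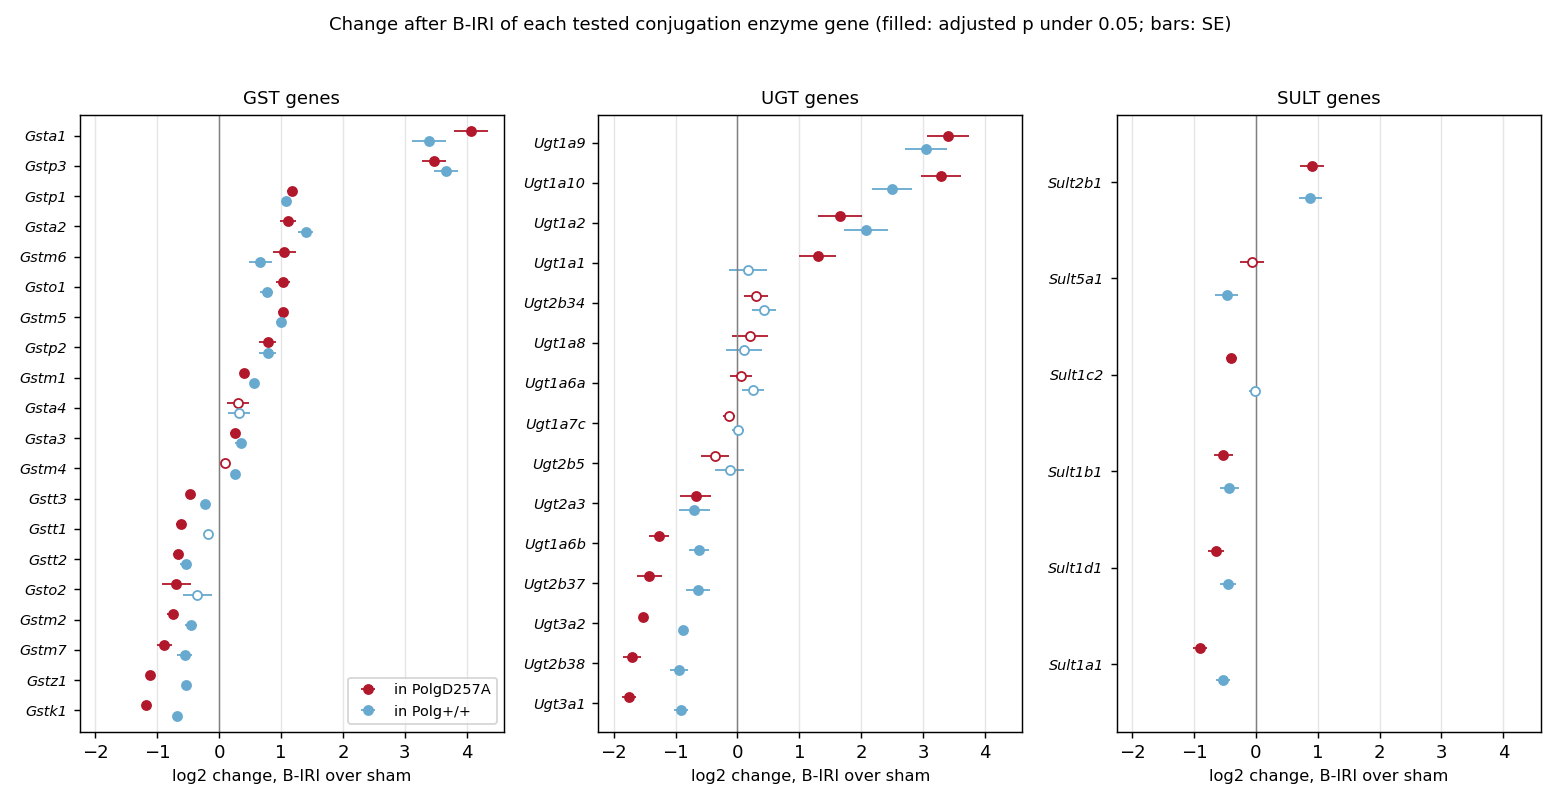
Log2 change (B-IRI minus sham, bars of 1 SE) of each of the 41 judged genes in PolgD257A and in Polg+/+ kidneys, grouped by enzyme and ordered by the PolgD257A change. Gsta1, Gstp3, Ugt1a9 and Ugt1a10 lie farthest to the side of higher values, and Ugt3a1, Ugt2b38 and Ugt3a2 are the most negative in PolgD257A.

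The alpha class, which reduces lipid hydroperoxides and conjugates products of lipid peroxidation, held Gsta1, whose change in PolgD257A was the largest of the 41 genes on this scale. Gsta1 (ENSMUSG00000074183.4, chr9:78230656-78242684) had 123 to 407 (median 275) normalized counts in B-IRI PolgD257A and 55.3 to 213 (median 171) in B-IRI Polg+/+ libraries, against 9.49 to 18.4 (median 14.1) in Sham PolgD257A and 10.6 to 18.7 (median 13.0) in Sham Polg+/+ libraries. Every B-IRI library lay above every sham library in both genotypes. The change was 4.07 ± 0.28 (adjusted p = 1.9e-12) in PolgD257A and 3.38 ± 0.28 (adjusted p = 5.2e-10) in Polg+/+. Per kilobase of exon it averaged 285 normalized counts in B-IRI PolgD257A kidneys, where Gsta2 averaged 5402, and shared sequence (below) may understate the Gsta1 level. Gsta2 itself had 4551 to 7604 (median 6581) normalized counts in B-IRI PolgD257A and 5499 to 7367 (median 6209) in B-IRI Polg+/+ libraries, against 2410.2 to 3131 (median 2959) in Sham PolgD257A and 1802 to 3587 (median 2343) in Sham Polg+/+ libraries. These groups did not overlap either, and Gsta2 rose by 1.11 ± 0.13 (adjusted p = 2.7e-08) and 1.40 ± 0.13 (adjusted p = 3.1e-09), in PolgD257A and in Polg+/+. Of the 75-base words in the Gsta1 exons, 84.7% also occur in Gsta2 or in the predicted genes Gm3776 and Gm10639, so its reads could be split or lost in counting, and 36.6% of the Gsta2 words are shared likewise. Gsta3, which lies apart on chromosome 1, rose by 0.25 ± 0.08 in PolgD257A (adjusted p = 0.011) and by 0.35 ± 0.08 in Polg+/+ (adjusted p = 0.0018), and its B-IRI and sham libraries overlapped. Gsta3 averaged 2553 ± 271 in B-IRI PolgD257A and 2926 ± 377 in B-IRI Polg+/+, against 2147 ± 271 in Sham PolgD257A and 2289 ± 147 in Sham Polg+/+ (normalized counts, mean ± SD, n = 6 each, as for all group means that follow). Gsta4, the isoform that favours 4-hydroxynonenal, did not pass in either genotype (0.31 ± 0.17 and 0.32 ± 0.17). Its highest sham value, 1146 in Sham Polg+/+ replicate 6 against 521 to 725 in the other libraries of that group, lay above all B-IRI libraries, and without that library Gsta4 passed in Polg+/+.

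The pi class is a cluster of 3 genes within 24.162 kb of chromosome 19, all on the minus strand, and all 3 rose in both genotypes. Pi class enzymes conjugate electrophiles. Gstp1 (ENSMUSG00000060803.7, chr19:4035407-4037985) carried nearly all of the class and had 5955 to 8219 (median 7126) normalized counts in B-IRI PolgD257A and 5708 to 6835 (median 6509) in B-IRI Polg+/+ libraries, against 2896 to 3369 (median 2985) in Sham PolgD257A and 2670.2 to 3275 (median 3036) in Sham Polg+/+ libraries. The B-IRI and sham libraries did not overlap, at 1.17 ± 0.07 (adjusted p = 1.6e-13) in PolgD257A and 1.08 ± 0.07 (adjusted p = 1.1e-11) in Polg+/+. Gstp3 (ENSMUSG00000058216.14, chr19:4057477-4059569), the gene farthest from Gstp1 in the cluster, had 37.2 to 90.4 (median 70.2) normalized counts in B-IRI PolgD257A and 55.0 to 71.4 (median 66.7) in B-IRI Polg+/+ libraries, against 4.23 to 7.38 (median 4.54) in Sham PolgD257A and 2.70 to 5.89 (median 4.53) in Sham Polg+/+ libraries. Sham kidneys held only a few counts, and every B-IRI library lay above every sham library. In reads, Gstp3 had 466 in B-IRI against 30 in sham PolgD257A libraries (ratio 13.2 per size-scaled library, 95% interval 9.13 to 19.8) and 432 against 22 in Polg+/+ (15.0, 9.81 to 24.3), where intervals cover counting error only. The fitted change was 3.47 ± 0.20 (adjusted p = 1e-13) in PolgD257A and 3.67 ± 0.20 (adjusted p = 9.3e-13) in Polg+/+. Gstp3 reached 10 counts in B-IRI libraries only, so it was judged because it was high there, and these calls are no independent support. None of the Gstp3 75-base words occurs in another gene, whereas 50.1% of those of Gstp2 and 29.2% of those of Gstp1 are shared. Gstp2, between the others, rose by 0.78 ± 0.14 and 0.78 ± 0.14, and its reads are uncertain for that reason. Gstp2 averaged 94.8 ± 16.0 in B-IRI PolgD257A and 95.9 ± 9.95 in B-IRI Polg+/+, against 54.7 ± 9.59 in Sham PolgD257A and 55.9 ± 9.34 in Sham Polg+/+. Per kilobase of exon Gstp1 averaged 4498 and Gstp3 76.1 normalized counts in B-IRI PolgD257A, so the gene with the larger change was a minor transcript of the class.

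**Figure D2:**
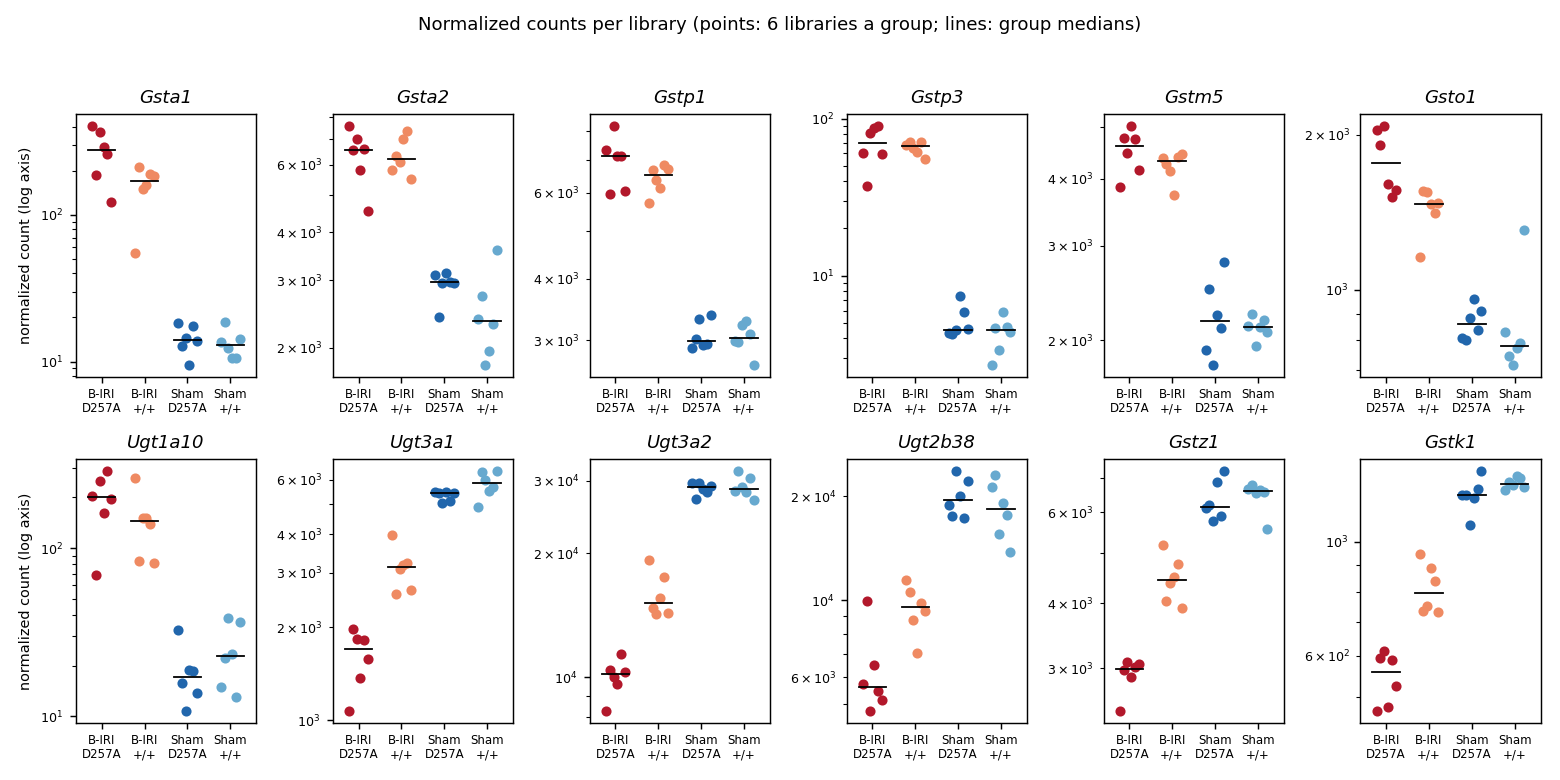
Normalized counts (log axis) of 12 conjugation genes in every library, with the group median as a line; D257A stands for PolgD257A and +/+ for Polg+/+. All B-IRI points of Gsta1, Gstp1, Gstp3, Gstm5 and Ugt1a10 lie above the sham points, and all B-IRI points of Ugt3a1, Ugt3a2, Ugt2b38, Gstz1 and Gstk1 lie below them.

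The mu class, with broad activity toward epoxides and other electrophiles, moved in both directions within 1 cluster of 7 genes spanning 149.073 kb of chromosome 3. Gstm5, at the end of the cluster and on the opposite strand to its neighbours, had 3868 to 5031 (median 4607) normalized counts in B-IRI PolgD257A and 3734 to 4449 (median 4319.7) in B-IRI Polg+/+ libraries, against 1799 to 2801 (median 2168) in Sham PolgD257A and 1948 to 2238 (median 2121) in Sham Polg+/+ libraries. These groups did not overlap, and the change was nearly the same in PolgD257A (1.03 ± 0.08, adjusted p = 3.1e-11) and in Polg+/+ (1.00 ± 0.08, adjusted p = 5e-10). Gstm1, the most abundant mu transcript per kilobase (5493 in B-IRI PolgD257A), rose less, by 0.40 ± 0.06 and 0.57 ± 0.06. It had 7279 to 9192 (median 7868) normalized counts in B-IRI PolgD257A and 8522 to 9796 (median 9396) in B-IRI Polg+/+ libraries, against 5460.0 to 6901 (median 6090.0) in Sham PolgD257A and 5879 to 6683 (median 6179) in Sham Polg+/+ libraries. The nearest neighbour of Gstm5, Gstm7, went the other way, with 56.8 to 81.2 (median 70.1) normalized counts in B-IRI PolgD257A and 82.5 to 141 (median 112) in B-IRI Polg+/+ libraries, against 114 to 145 (median 121) in Sham PolgD257A and 126 to 186 (median 164) in Sham Polg+/+ libraries. In PolgD257A the groups did not overlap (-0.88 ± 0.13, adjusted p = 1.3e-06), and in Polg+/+ they did (-0.56 ± 0.13, adjusted p = 0.00094). Gstm2 also fell, at -0.75 ± 0.09 in PolgD257A and -0.45 ± 0.09 in Polg+/+, while Gstm6, a low transcript with 15.1 to 58.7 normalized counts over all libraries, rose (1.05 ± 0.19 and 0.67 ± 0.19). Gstm4 rose in Polg+/+ (0.25 ± 0.07, adjusted p = 0.0035), was at 0.09 ± 0.07 in PolgD257A (adjusted p = 0.23), and the difference of these changes did not pass (interaction -0.16 ± 0.09). Gstm4 averaged 352 ± 32.3 in B-IRI PolgD257A and 402 ± 43.2 in B-IRI Polg+/+, against 329 ± 9.08 in Sham PolgD257A and 336 ± 16.7 in Sham Polg+/+. For Gstm2 the means were 544 ± 87.8 in B-IRI PolgD257A and 705 ± 66.9 in B-IRI Polg+/+, against 911 ± 80.1 in Sham PolgD257A and 970.1 ± 124 in Sham Polg+/+. For Gstm6 they were 46.7 ± 10.3 in B-IRI PolgD257A and 41.8 ± 6.28 in B-IRI Polg+/+, against 22.2 ± 6.59 in Sham PolgD257A and 26.3 ± 5.93 in Sham Polg+/+. Gstm3 was too low to judge. The transcript 4933431E20Rik overlaps Gstm5 on the opposite strand and 11.7% of the Gstm1 words occur in the pseudogene Gstm2-ps1, so both counts carry that uncertainty.

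**Figure D3:**
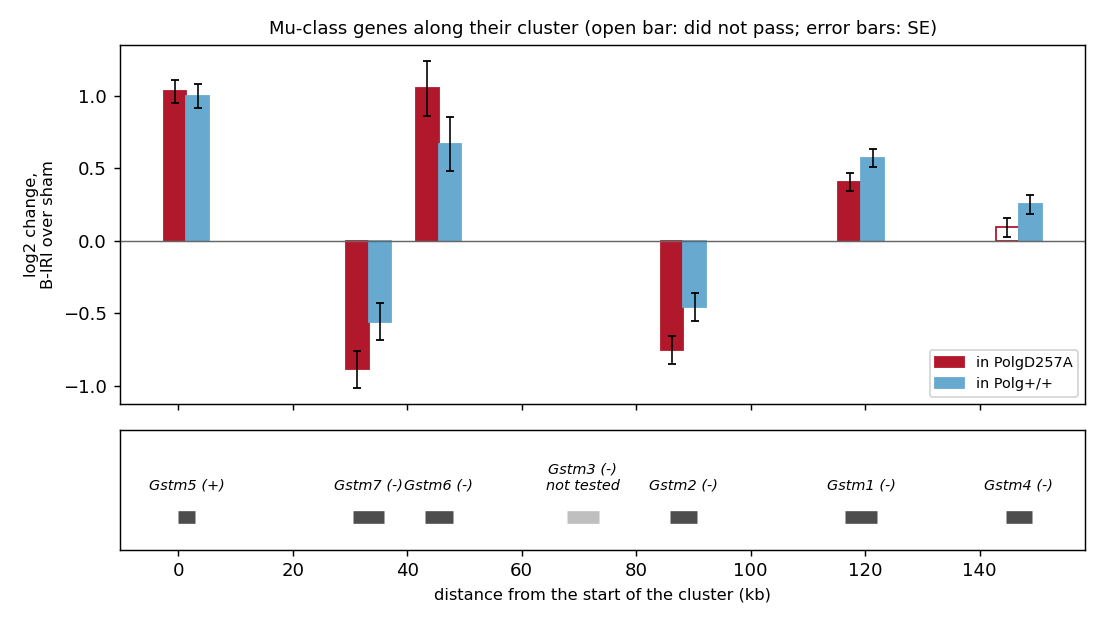
Log2 change (B-IRI minus sham, bars of 1 SE) of the judged mu class genes against their distance in kb from the start of the cluster, with the gene map under it. Gstm5 at the left end is the highest in Polg+/+, its neighbour Gstm7 and the more distant Gstm2 are below 0, and Gstm6 and Gstm1 are above it.

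The omega class reduces dehydroascorbate to ascorbate. Gsto1 had 1513 to 2084 (median 1760.2) normalized counts in B-IRI PolgD257A and 1156 to 1556 (median 1469.7) in B-IRI Polg+/+ libraries, against 801 to 959 (median 859) in Sham PolgD257A and 716 to 1308 (median 779.7) in Sham Polg+/+ libraries. It rose by 1.04 ± 0.11 (adjusted p = 9.9e-09) in PolgD257A, where the groups did not overlap, and by 0.77 ± 0.11 (adjusted p = 4.9e-06) in Polg+/+, where they did through Sham Polg+/+ replicate 6. Gsto2, its neighbour on chromosome 19, was low (12.4 to 45.8 over all libraries) and fell in PolgD257A (-0.69 ± 0.23, adjusted p = 0.012), with -0.35 ± 0.23 and no pass in Polg+/+. Its means were 18.7 ± 5.22 in B-IRI PolgD257A and 22.9 ± 6.38 in B-IRI Polg+/+, against 31.7 ± 11.2 in Sham PolgD257A and 28.9 ± 4.61 in Sham Polg+/+.

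Of the other GST genes, Gstz1, Gstk1, Gstt2 and Gstt3 fell in both genotypes and Gstt1 in PolgD257A. Gstz1 (ENSMUSG00000021033.12, chr12:87147165-87164723), the maleylacetoacetate isomerase of tyrosine breakdown, had 2485 to 3078 (median 2995) normalized counts in B-IRI PolgD257A and 3921 to 5189 (median 4448) in B-IRI Polg+/+ libraries, against 5772 to 7196 (median 6154) in Sham PolgD257A and 5562 to 6763 (median 6589.6) in Sham Polg+/+ libraries. No B-IRI library reached a sham library of the same genotype, and the fall was -1.12 ± 0.07 (adjusted p = 4e-13) in PolgD257A and -0.53 ± 0.07 (adjusted p = 9.3e-07) in Polg+/+. Gstk1, the class found in mitochondria and peroxisomes, had 469.8 to 612 (median 558) normalized counts in B-IRI PolgD257A and 731 to 947 (median 794) in B-IRI Polg+/+ libraries, against 1077 to 1370.4 (median 1233) in Sham PolgD257A and 1260.1 to 1342 (median 1297) in Sham Polg+/+ libraries. It fell without overlap in both genotypes, at -1.18 ± 0.07 (adjusted p = 3.2e-13) and at -0.68 ± 0.07 (adjusted p = 3.7e-08). In the theta class, which handles small halogenated compounds, Gstt1 had 1279 to 1714 (median 1409) normalized counts in B-IRI PolgD257A and 1833 to 2169 (median 1968) in B-IRI Polg+/+ libraries, against 1907 to 2539 (median 2235) in Sham PolgD257A and 1977 to 2470.3 (median 2257) in Sham Polg+/+ libraries. Gstt1 fell in PolgD257A without overlap (-0.62 ± 0.08, adjusted p = 1e-07) and was at -0.17 ± 0.08 in Polg+/+ (adjusted p = 0.069, 95% interval -0.33 to -0.02). Gstt2 had 3015 ± 391, 3381 ± 481, 4752 ± 331 and 4909.8 ± 509 normalized counts in B-IRI PolgD257A, B-IRI Polg+/+, Sham PolgD257A and Sham Polg+/+ (mean ± SD, n = 6 each). It fell, at -0.66 ± 0.09 in PolgD257A and -0.54 ± 0.09 in Polg+/+, and Gstt3 fell, at -0.47 ± 0.07 and -0.23 ± 0.07. The means of Gstt3 were 602 ± 57.6 in B-IRI PolgD257A and 737 ± 80.4 in B-IRI Polg+/+, against 834 ± 37.5 in Sham PolgD257A and 860.3 ± 67.4 in Sham Polg+/+. Gstz1 overlaps Pomt2 and Gm6566 on the opposite strand and Gstt3 overlaps Gm20441 on its own, and no source used here says whether counting took strand into account.

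The UGT1A genes are alternative first exons joined to shared last exons on chromosome 1, so reads in the shared part cannot be assigned to 1 of them and only the bases that no other gene of the locus shares tell them apart. These own bases, counted by position, number 938 of 2382 exonic bases in Ugt1a6b, 2142 of 4312 in Ugt1a6a and 1915 of 4219 in Ugt1a7c. They need not be distinct in sequence. Of the 75-base words of Ugt1a6b, 74.8% also occur in other genes, with Ugt1a6a sharing the most. Ugt1a7c alone was abundant, with 4100.3 to 6585 (median 5378) normalized counts in B-IRI PolgD257A and 5025 to 6273 (median 5556) in B-IRI Polg+/+ libraries, against 5213 to 6398 (median 5530.0) in Sham PolgD257A and 4654 to 6355 (median 5665) in Sham Polg+/+ libraries. The groups overlapped, and it passed in neither genotype (-0.13 ± 0.09, 95% interval -0.33 to 0.06, and 0.01 ± 0.09, -0.19 to 0.20). Of its own bases 998 lie at the 3′ end, past the shared exons, where the other genes of the locus have none. These bases do not tell the first exons apart, since reads there may come from any of them. The Ugt1a7c level and its lack of a call may therefore belong to the locus and not to its own first exon. The first exons farthest upstream, Ugt1a10 and Ugt1a9, moved most. Ugt1a10 had 69.3 to 286 (median 200.2) normalized counts in B-IRI PolgD257A and 81.7 to 259.9 (median 144) in B-IRI Polg+/+ libraries, against 10.8 to 32.4 (median 17.2) in Sham PolgD257A and 13.0 to 38.3 (median 22.9) in Sham Polg+/+ libraries. All B-IRI libraries exceeded all sham libraries, at 3.29 ± 0.32 (adjusted p = 1.9e-09) in PolgD257A and 2.49 ± 0.32 (adjusted p = 8.7e-07) in Polg+/+. Ugt1a9 had 5.07 to 19.0 (median 14.1) normalized counts in B-IRI PolgD257A and 5.00 to 13.0 (median 9.37) in B-IRI Polg+/+ libraries, against 0 to 1.08 (median 0) in Sham PolgD257A and 0 to 1.13 (median 0) in Sham Polg+/+ libraries. It rested on 91 reads in B-IRI against 2 in sham PolgD257A libraries (ratio 38.7, 95% interval 10.4 to 325) and on 58 against 1 in Polg+/+ (44.4, 7.66 to 1785), and its fitted change depends on the pseudocount. Ugt1a9 was judged only through B-IRI libraries, so its calls are no independent support.

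Ugt1a2, also a low transcript, rose by 1.66 ± 0.36 in PolgD257A without overlap and by 2.08 ± 0.36 in Polg+/+. In Polg+/+ it overlapped through Sham Polg+/+ replicate 6, at 35.1 against 3.38 to 10.5 in the other libraries of that group, and without that library the change was 2.47. Ugt1a1, the bilirubin enzyme, had 97 reads in B-IRI against 30 in sham PolgD257A libraries (ratio 2.75, 95% interval 1.81 to 4.29) and 50 against 33 in Polg+/+ (1.16, 0.733 to 1.86). Its change passed in PolgD257A (1.30 ± 0.30, adjusted p = 0.00054) and was 0.17 ± 0.30 in Polg+/+. Ugt1a1 reached 10 counts in 7 B-IRI and 0 sham libraries, so it was judged only because it was high there. Its call is therefore no independent support for a rise. Ugt1a6b fell, with 11.5 to 17.8 (median 12.6) normalized counts in B-IRI PolgD257A and 15.0 to 23.3 (median 19.2) in B-IRI Polg+/+ libraries, against 30.2 to 39.1 (median 34.0) in Sham PolgD257A and 21.2 to 37.9 (median 32.9) in Sham Polg+/+ libraries. In PolgD257A the groups did not overlap (-1.27 ± 0.16, adjusted p = 2.1e-07), and in Polg+/+ they did (-0.62 ± 0.16, adjusted p = 0.0036). The Ugt1a6b reads are uncertain because of the words it shares with Ugt1a6a. Ugt1a6a (23.6 to 58.8 over all libraries) and Ugt1a8 (5.40 to 24.3) passed in neither genotype.

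UGT2B enzymes glucuronidate steroids and drugs, and most of them lie with Ugt2a and Sult1 genes in a 701.827 kb stretch of chromosome 5 that holds 13 of the genes described here. Ugt2b38 (ENSMUSG00000061906.6, chr5:87409942-87424203) was the main one, with 4797 to 9959 (median 5606) normalized counts in B-IRI PolgD257A and 7044 to 11437 (median 9577) in B-IRI Polg+/+ libraries, against 17368 to 23646 (median 19469.9) in Sham PolgD257A and 13843 to 23064 (median 18393) in Sham Polg+/+ libraries. It fell without overlap in both genotypes, at -1.71 ± 0.15 (adjusted p = 1.4e-10) in PolgD257A and -0.95 ± 0.15 (adjusted p = 9.4e-06) in Polg+/+. Ugt2b37 had 484 to 1448 (median 531) normalized counts in B-IRI PolgD257A and 812 to 1324 (median 1017) in B-IRI Polg+/+ libraries, against 1506 to 2157 (median 1669.8) in Sham PolgD257A and 1197 to 2090.4 (median 1722) in Sham Polg+/+ libraries. It fell, at -1.42 ± 0.20 (adjusted p = 6.2e-07) without overlap and at -0.64 ± 0.20 (adjusted p = 0.011) with overlap, in PolgD257A and in Polg+/+. B-IRI PolgD257A replicate 2 held the highest value of its group for both genes, 9959 for Ugt2b38 and 1448 for Ugt2b37, and without it the PolgD257A changes were -1.85 and -1.65. Ugt2b34, with 235 to 817 over all libraries, did not pass (0.30 ± 0.20 and 0.42 ± 0.20), and neither did the low Ugt2b5. Ugt2a3, at 7.61 to 46.8, fell, at -0.67 ± 0.25 and -0.70 ± 0.25, with overlapping groups. Ugt2a3 had 7.61 to 19.9 (median 17.2) normalized counts in B-IRI PolgD257A and 9.17 to 25.0 (median 14.8) in B-IRI Polg+/+ libraries, against 19.4 to 31.2 (median 25.1) in Sham PolgD257A and 16.2 to 46.8 (median 24.2) in Sham Polg+/+ libraries. Ugt2b5 had 19.8 to 89.6 (median 44.1) normalized counts in B-IRI PolgD257A and 45.2 to 76.8 (median 62.4) in B-IRI Polg+/+ libraries, against 46.5 to 67.2 (median 62.5) in Sham PolgD257A and 50.7 to 87.7 (median 65.8) in Sham Polg+/+ libraries. Of the 75-base words of Ugt2b38, 28.0% occur in other genes, and for Ugt2b5 30.4%.

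The UGT3A pair on chromosome 15 and the UGT2B genes made up most of the UGT sum per kilobase in sham kidneys, at 46.4% ± 2.14 and 47.8% ± 2.27 of it in Sham PolgD257A (SD, n = 6). In humans, UGT3A1 uses UDP-N-acetylglucosamine and UGT3A2 uses UDP-glucose and UDP-xylose in place of UDP-glucuronic acid. Ugt3a2 had 8292 to 11394 (median 10172) normalized counts in B-IRI PolgD257A and 14274 to 19248 (median 15157) in B-IRI Polg+/+ libraries, against 27014 to 29595 (median 28906) in Sham PolgD257A and 26974 to 31615 (median 28681) in Sham Polg+/+ libraries. Every B-IRI library was below every sham library, with -1.52 ± 0.07 (adjusted p = 4.8e-15) in PolgD257A and -0.87 ± 0.07 (adjusted p = 9e-10) in Polg+/+. Ugt3a1 had 1074 to 1970.5 (median 1700.2) normalized counts in B-IRI PolgD257A and 2552 to 3987 (median 3139) in B-IRI Polg+/+ libraries, against 5046 to 5469 (median 5436) in Sham PolgD257A and 4909 to 6384 (median 5849) in Sham Polg+/+ libraries. It too fell without overlap, at -1.76 ± 0.11 (adjusted p = 7e-13) in PolgD257A and at -0.91 ± 0.11 (adjusted p = 4.4e-07) in Polg+/+. The B-IRI PolgD257A libraries of both genes were also below all B-IRI Polg+/+ libraries.

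Few sulfotransferases were expressed. Sult1d1, which sulfates catecholamines in mice, made up most of the SULT signal and had 7021 to 14005 (median 10750.2) normalized counts in B-IRI PolgD257A and 9186 to 15161 (median 11218) in B-IRI Polg+/+ libraries, against 14694 to 18574 (median 16249.9) in Sham PolgD257A and 12043 to 18072 (median 16051) in Sham Polg+/+ libraries. In PolgD257A the groups did not overlap (-0.65 ± 0.13, adjusted p = 0.00012). In Polg+/+ they did (-0.45 ± 0.13, adjusted p = 0.0073), Sham Polg+/+ replicate 6 being the lowest sham library, and the Polg+/+ call was lost under quantile normalization (-0.26), under which the PolgD257A change was -0.32. Sult1c2 had 866 to 1339.6 (median 1178) normalized counts in B-IRI PolgD257A and 1329.8 to 1704 (median 1481) in B-IRI Polg+/+ libraries, against 1283 to 1609 (median 1509) in Sham PolgD257A and 1339.7 to 1817 (median 1511) in Sham Polg+/+ libraries. It fell in PolgD257A with overlap (-0.39 ± 0.09, adjusted p = 0.00056) and was at -0.02 ± 0.09 in Polg+/+ (95% interval -0.21 to 0.17). Sult1a1, the main phenol sulfotransferase, had 186 ± 36.0 and 209.5 ± 32.3 normalized counts in B-IRI PolgD257A and B-IRI Polg+/+, against 343 ± 33.1 and 302 ± 27.7 in Sham PolgD257A and Sham Polg+/+ (mean ± SD, n = 6 each). It fell, at -0.90 ± 0.11 and -0.53 ± 0.11, in PolgD257A without overlap, and it overlaps Sgf29 on the opposite strand. Sult1b1, the thyroid hormone sulfotransferase, fell, at -0.52 ± 0.15 and -0.43 ± 0.15. It averaged 67.9 ± 15.2 in B-IRI PolgD257A and 75.7 ± 11.1 in B-IRI Polg+/+, against 96.9 ± 14.5 in Sham PolgD257A and 103 ± 19.5 in Sham Polg+/+. Sult2b1, which sulfates cholesterol and pregnenolone, was the only SULT gene judged to be higher, at 0.91 ± 0.19 and 0.88 ± 0.19 on 15.8 to 55.0 normalized counts, and it overlaps Lmtk3 and Gm31597 on the opposite strand. The Sult2b1 means were 44.4 ± 7.74 in B-IRI PolgD257A and 40.4 ± 10.9 in B-IRI Polg+/+, against 23.5 ± 5.79 in Sham PolgD257A and 21.2 ± 4.06 in Sham Polg+/+. Sult5a1 passed in Polg+/+ (-0.47 ± 0.19, adjusted p = 0.048) and lost that call under 21 of the 34 alternatives that could judge it, and it was at -0.06 ± 0.19 in PolgD257A. Sult5a1 averaged 17.9 ± 4.70 in B-IRI PolgD257A and 16.1 ± 4.01 in B-IRI Polg+/+, against 18.5 ± 3.78 in Sham PolgD257A and 22.3 ± 3.33 in Sham Polg+/+.

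Summed per kilobase of exon over all genes of an enzyme, GST transcripts averaged 24914 ± 1608 in B-IRI PolgD257A and 25969.9 ± 1044 in B-IRI Polg+/+ kidneys, against 17627 ± 759 in Sham PolgD257A and 17429 ± 854 in Sham Polg+/+ kidneys (normalized counts per kb, SD, n = 6 each). UGT transcripts went the other way, at 9089.8 ± 1282 in B-IRI PolgD257A and 13514 ± 1593 in B-IRI Polg+/+, against 24277 ± 1621 in Sham PolgD257A and 23693 ± 2453 in Sham Polg+/+. SULT transcripts were at 5171 ± 1014 in B-IRI PolgD257A and 5742 ± 892 in B-IRI Polg+/+, against 7778 ± 485 in Sham PolgD257A and 7519.8 ± 766 in Sham Polg+/+. GST sums were below UGT sums in every sham library and above them in every B-IRI library. Not divided by exon length, GST counts averaged 41137 ± 2194 in B-IRI PolgD257A and 44405 ± 1932 in B-IRI Polg+/+ kidneys. Sham PolgD257A kidneys averaged 34903 ± 1732 and Sham Polg+/+ kidneys 35040 ± 1288, so the relative rise was smaller than per kilobase. These sums are descriptions and were not tested. Within the GST sum the zeta, kappa and theta classes made up less after B-IRI. The theta class held 7.41% ± 0.681 and 8.89% ± 0.747 of it in B-IRI PolgD257A and B-IRI Polg+/+, against 16.0% ± 0.654 and 16.5% ± 0.970 in Sham PolgD257A and Sham Polg+/+. The pi class held 18.7% ± 1.48 and 16.5% ± 1.20, against 11.6% ± 0.905 and 11.6% ± 1.32 in the same order of groups, and the mu class stayed between 38.1% and 39.8% in the means of all 4 groups. In the UGT sum the UGT1A share was 15.5% ± 3.39 and 10.8% ± 0.855 after B-IRI, against 5.72% ± 0.338 and 5.83% ± 0.390 in sham, in PolgD257A and Polg+/+ each time. These values divide by all exonic bases, so where only own bases collect reads the UGT1A share is understated.

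**Figure D4:**
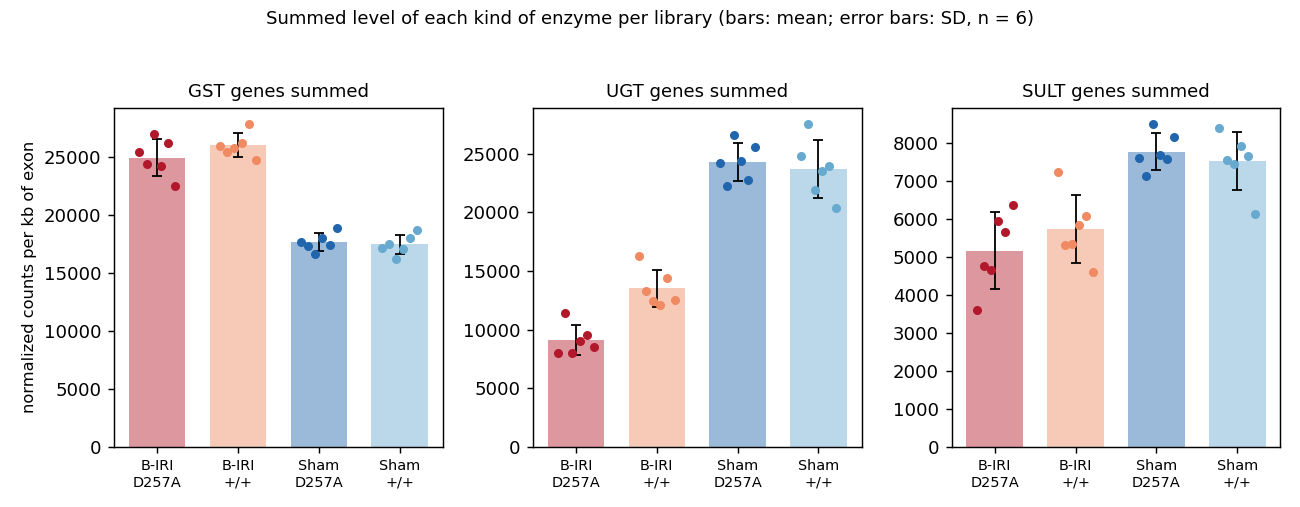
Summed normalized counts per kb of exon for GST, UGT and SULT genes in the 4 groups (bars are means of 6 libraries, error bars SD, points libraries). GST bars are higher and UGT and SULT bars lower in both B-IRI groups than in the sham groups, and the UGT bar is lowest in B-IRI PolgD257A.

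Between genotypes, 0 of the 41 genes passed in sham kidneys, against 0.126% of all genes (0.0861% higher and 0.0402% lower in PolgD257A). Without adjustment 3 of the 41 had p under 0.05 by limma, 1 by edgeR and 1 by DESeq2, and both count models also called 0 after adjustment. Gstp3 had a sham difference of 0.22 ± 0.20 (95% interval -0.19 to 0.63), Ugt3a2 one of -0.02 ± 0.07 (-0.17 to 0.13), and Ugt1a2 the most positive one at 0.85 ± 0.36 (0.11 to 1.58), so the intervals of low genes admit sizeable differences.

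After B-IRI, 17 genes passed, 14 lower and 3 higher in PolgD257A than in Polg+/+ kidneys, against 29.5% of all genes tested (15.2% lower and 14.3% higher). By adjusted p, Ugt3a2, Gstz1 and Ugt3a1 came first among those that were lower. Ugt3a1 was lower, at -0.97 ± 0.11 (adjusted p = 1.1e-06), Ugt3a2 at -0.67 ± 0.07 (adjusted p = 6.2e-07) and Gstz1 at -0.61 ± 0.07 (adjusted p = 9.1e-07). Gstk1 was at -0.58 ± 0.07, Gstm7 at -0.67 ± 0.13 and Gstt1 at -0.45 ± 0.08. Gstm7 was also at -0.35 ± 0.13 in sham without passing, and its interaction, the test described below, did not pass (-0.32 ± 0.18). For these 6 genes every B-IRI PolgD257A library lay below every B-IRI Polg+/+ library. The share of all genes that separate in this way was not counted, so this describes these genes only. Ugt2b38 (-0.63 ± 0.15) and Ugt2b37 (-0.66 ± 0.20) passed with overlap through B-IRI PolgD257A replicate 2. Ugt1a6b (-0.46 ± 0.16), Sult1c2 (-0.41 ± 0.09), Gstm2 (-0.38 ± 0.09), Gstt3 (-0.29 ± 0.07), Gstm1 (-0.20 ± 0.06) and Gstm4 (-0.19 ± 0.07) were lower too. The median over the 41 genes was -0.13, against 0.01 over all genes.

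The calls of the 3 genes that were higher depended on single libraries. Gsta1 was higher by 0.79 ± 0.28 (adjusted p = 0.032), Gsto1 by 0.31 ± 0.11 (adjusted p = 0.036) and Ugt1a1 by 0.79 ± 0.30 (adjusted p = 0.048), and all 3 overlapped. Ugt1a1 was judged only through B-IRI libraries, so its call is no independent support. Without B-IRI Polg+/+ replicate 1, the lowest library of its group for Gsta1 and Gsto1, Gsta1 was at 0.51 and Gsto1 at 0.25 (adjusted p = 0.11 for both), and 0 genes were called higher. The count was also 0 without B-IRI PolgD257A replicate 1, and 1 without replicate 2, 3 or 4 of that group. Gstp1, Gstp3 and Gstm5, which rose after B-IRI, did not pass between genotypes (0.12 ± 0.07, 95% interval -0.02 to 0.26, 0.03 ± 0.20, -0.38 to 0.44, and 0.09 ± 0.08, -0.08 to 0.26).

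**Figure D5:**
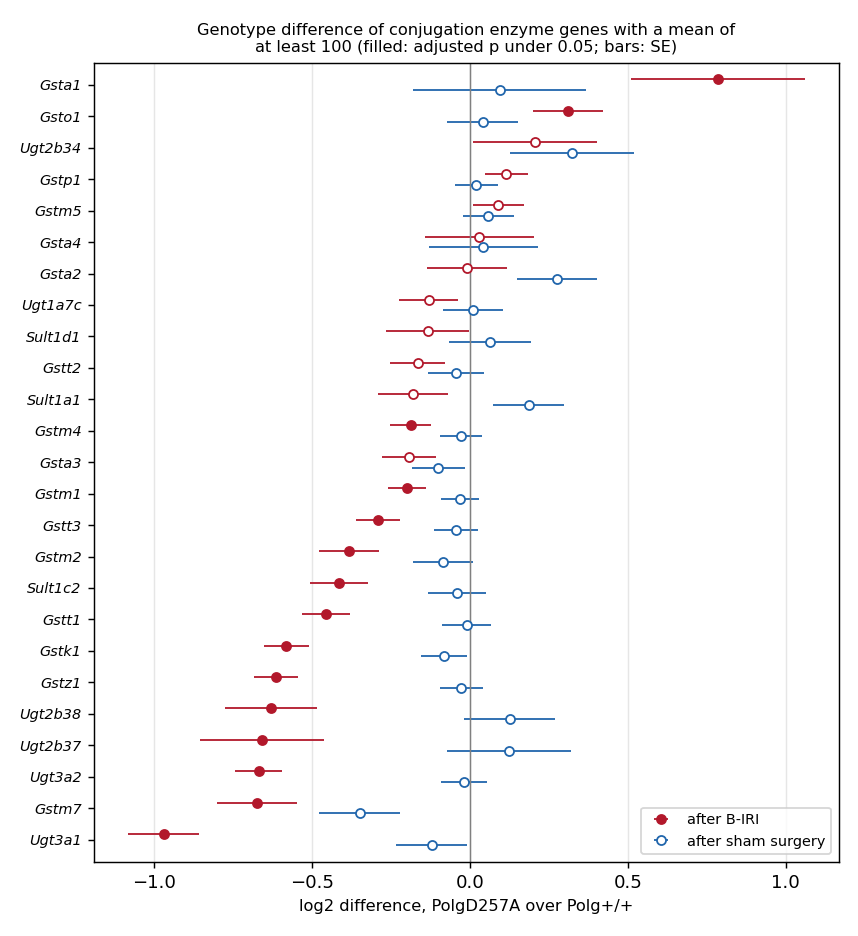
Log2 difference (PolgD257A minus Polg+/+, bars of 1 SE) of the 25 genes averaging 100 normalized counts or more, after B-IRI in red and after sham surgery in blue. The sham differences lie between -0.35 for Gstm7 and 0.32 for Ugt2b34, while those after B-IRI reach -0.97 for Ugt3a1 and 0.79 for Gsta1.

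Whether the response to B-IRI itself differed by genotype was tested by the interaction (change in PolgD257A minus change in Polg+/+). It passed for 7 genes, all negative, against 15.9% of all genes (9.08% negative and 6.87% positive), and under quantile normalization the split was 6 negative and 1 positive. The 7 were Ugt3a1 (-0.85 ± 0.16, adjusted p = 0.00091), Ugt2b38 (-0.76 ± 0.21, adjusted p = 0.013), Ugt3a2 (-0.65 ± 0.10, adjusted p = 0.00024), Gstz1 (-0.59 ± 0.10, adjusted p = 0.00034), Gstk1 (-0.50 ± 0.10, adjusted p = 0.0017), Gstt1 (-0.44 ± 0.11, adjusted p = 0.0063) and Sult1c2 (-0.37 ± 0.13, adjusted p = 0.048). In all 7 the change was more negative in PolgD257A. Sult1c2 lost its call under 19 of the 35 alternatives, and without Sham Polg+/+ replicate 6 Ugt1a6b also passed, for 8 in all. Gsta1 had an interaction of 0.69 ± 0.39 and Gstp3 one of -0.19 ± 0.28, and neither passed.

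Markers of several cell types also differed between groups, and those of others did so little or not at all. The 6 markers of the S3 segment of the proximal tubule summed to 17227 to 26859 normalized counts in B-IRI PolgD257A and 29349 to 42579.8 in B-IRI Polg+/+ libraries, against 76001 to 80953 in Sham PolgD257A and 61798 to 86235 in Sham Polg+/+ libraries. All 6 were lower in PolgD257A than in Polg+/+ after B-IRI, as were 5 of the 7 S1 and S2 markers, against 15.2% of all genes. Against sham, 5 of the 6 S3 markers were lower in PolgD257A, where 30.3% of all genes were. In Polg+/+ 5 were lower, against 19.8%, and 1 was higher. For both lists the B-IRI PolgD257A sums did not overlap with those of B-IRI Polg+/+. The 8 markers of injured tubule summed to 203199.9 to 384037 and 59798 to 199319, against 16789 to 17928 and 14429 to 22596, in the same order of groups. After B-IRI 7 of them were higher in PolgD257A than in Polg+/+, against 14.3% of all genes. Between genotypes after B-IRI, markers of the thick ascending limb (4 of 4, median -0.52) and of the distal convoluted tubule (3 of 3, -0.67) were also lower in PolgD257A. Fibroblast markers (5 of 5, 0.64), 3 of 4 endothelial (0.35) and both judged neutrophil markers (1.35) were higher. Of all genes, 14.3% were higher and 15.2% lower. Of 5 judged collecting duct markers 2 were lower, and of 5 macrophage markers 2 were higher and 1 lower. Of the podocyte markers 0 of 4 passed, and of the T and B cell markers 0 of 4 judged. Fibroblast markers summed to 10368 to 18309.8 in B-IRI PolgD257A and 5044 to 12045 in B-IRI Polg+/+, against 2854 to 3891 in Sham PolgD257A and 3205 to 4137 in Sham Polg+/+. Thick ascending limb markers summed to 67148 to 113663 in B-IRI PolgD257A and 106909 to 130009 in B-IRI Polg+/+, against 89933 to 125852 in Sham PolgD257A and 96516 to 123325 in Sham Polg+/+. No proximal or injured tubule marker was at 0 in any group, the neutrophil marker Ly6g was at 0 in Sham PolgD257A, and the part of these markers in the conjugation gene results was not tested.

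The authors' deposited table of genes that differ after B-IRI lists 8 of the 64 genes. The sign of its shrunken log2 fold change is that of limma for all 8. Both rest on the same libraries, so the shared sign is no independent support. Other genes called here in this comparison, such as Gstt1 and Sult1c2, are not among the 8. In the authors' deposited table Ugt3a1 is at -0.93 ± 0.12, Ugt3a2 at -0.66 ± 0.07, Gstm7 at -0.65 ± 0.14, Gstz1 at -0.60 ± 0.07, Gstk1 at -0.57 ± 0.08 and Ugt2b38 at -0.53 ± 0.16 (SE). The authors' deposited table also has Ugt1a1 at 0.54 ± 0.45 and Gsta1 at 0.52 ± 0.35.

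Conjugation depends on cofactors, on the enzymes that process conjugates and on transport, and 8 pathway lists are given here by their called genes. Among all genes tested, 30.2% were higher and 30.3% lower after B-IRI in PolgD257A, 21.4% and 19.8% in Polg+/+, and 14.3% and 15.2% between genotypes after B-IRI. The mercapturate pathway, which trims glutathione conjugates and acetylates them for excretion in urine, moved in 1 direction. All 8 of its genes were lower after B-IRI in PolgD257A, where 30.3% of all genes were (median -1.35) and in Polg+/+, against 19.8% (median -0.73). All 8 were also lower in PolgD257A than in Polg+/+ after B-IRI, against 15.2% (median -0.62). Nat8f1, an N-acetyltransferase relative of Nat8, was at -2.20 ± 0.16 in PolgD257A and -0.87 ± 0.16 in Polg+/+. The aminoacylases Acy3 (-2.03 ± 0.15 and -0.95 ± 0.15) and Acy1 (-1.96 ± 0.11 and -0.91 ± 0.11) and Ggt1 (-1.02 ± 0.07 and -0.42 ± 0.07), which removes glutamate from the conjugate, fell with it. Many of these genes, like the S1 to S3 markers, are proximal tubule genes.

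Genes of the NRF2 arm (the factor, its repressor Keap1 and targets) moved the other way, with 7 of 8 judged genes higher in PolgD257A and 6 in Polg+/+ (30.2% and 21.4% of all genes) and medians of 2.06 and 1.52. The carbonyl reductase gene Cbr3 rose by 4.01 ± 0.22 and 3.40 ± 0.22, the heme oxygenase gene Hmox1 by 3.04 ± 0.18 and 1.98 ± 0.18, Srxn1 by 2.30 ± 0.11 and 1.54 ± 0.11 and Nqo1 by 1.82 ± 0.10 and 1.50 ± 0.10. After B-IRI 6 were higher in PolgD257A than in Polg+/+, against 14.3% of all genes. The list of other transferases, outside the GST classes above, also holds relatives such as Clic1 that are not counted as transferases here. Of its 8 judged genes, 6 rose and 1 fell in PolgD257A and 6 rose and 0 fell in Polg+/+. They were led by the microsomal Mgst1 (1.89 ± 0.13 and 1.53 ± 0.13) and by Clic1 (1.06 ± 0.09 and 0.58 ± 0.09).

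Calls among supply genes went both ways, and several counts were near the shares of all genes (30.2% up and 30.3% down in PolgD257A, 21.4% and 19.8% in Polg+/+). For glutathione supply and recycling, 4 of 10 genes rose and 4 fell in PolgD257A, and 5 rose and 2 fell in Polg+/+. The cystine transporter gene Slc7a11, also in the NRF2 list, rose (3.38 ± 0.35 and 2.33 ± 0.35), as did the glutathione reductase gene Gsr (0.69 ± 0.07 and 0.33 ± 0.07), and Ggct, of the gamma-glutamyl cycle, fell (-1.59 ± 0.10 and -1.10 ± 0.10). Of 10 UDP-glucuronate genes 1 rose and 6 fell in PolgD257A, and 2 rose and 3 fell in Polg+/+. Ugdh, which makes UDP-glucuronic acid, rose (1.19 ± 0.09 and 0.74 ± 0.09), and Akr1a1, which reduces glucuronate, fell (-0.86 ± 0.07 and -0.40 ± 0.07). For PAPS supply and sulfate removal 2 of 12 rose and 8 fell in PolgD257A, and 1 rose and 8 fell in Polg+/+. The PAPS synthase genes Papss2 (-1.20 ± 0.10 and -0.78 ± 0.10) and Papss1 (-0.83 ± 0.07 and -0.45 ± 0.07) fell together with Bpnt1 (-0.78 ± 0.06 and -0.35 ± 0.06), which breaks down the spent donor.

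Calls among transporters of conjugates and among regulators went both ways, beside the same shares of all genes. Of 10 genes 5 rose and 4 fell in PolgD257A, and 5 rose and 3 fell in Polg+/+. The export pump genes Abcc3 (1.56 ± 0.14 and 0.83 ± 0.14) and Abcc4 (1.28 ± 0.16 and 0.93 ± 0.16) rose, and Abcc6 (-1.30 ± 0.12 and -0.78 ± 0.12) and the basolateral uptake gene Slc22a8 (-1.72 ± 0.11 and -0.90 ± 0.11), also an S1 and S2 marker, fell. Of 10 receptors and tubule transcription factors 2 rose and 7 fell in PolgD257A, and 1 rose and 3 fell in Polg+/+. The bile acid receptor gene Nr1h4 fell, at -0.68 ± 0.10 in PolgD257A and -0.49 ± 0.10 in Polg+/+. Against 14.3% higher and 15.2% lower among all genes, the counts higher and lower in PolgD257A than in Polg+/+ after B-IRI were 2 and 4 for glutathione supply, 4 and 1 for other transferases, 1 and 3 for UDP-glucuronate, 3 and 4 for PAPS, 2 and 4 for transport and 0 and 3 for regulators.

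The other 23 genes could not be judged. There were 0 reads in all 24 libraries for 12 of them, namely Sult1c1, Sult2a2, Sult2a4, Sult2a5, Sult2a6, Sult2a7, Sult2a8, Sult3a1, Sult3a2, Ugt2a1, Ugt2a2 and Ugt2b36. The other 11 had reads that were too few. Sult6b1 reached 10 normalized counts in 2 libraries (0 to 12.1 over all) and Sult4a1 in 1 (0 to 14.4), and these were the genes nearest to the limit from below, while Ugt1a1 and Ugt1a9 were the nearest from above with 7 libraries each. Sult1e1, the estrogen sulfotransferase, had 0 to 6.09 normalized counts, Sult6b2 0 to 6.32, Gstm3 0 to 4.64, Sult2a3 0 to 4.23, Ugt2b35 0 to 3.38, Gstt4 0 to 2.50, Ugt1a5 0 to 1.73, Ugt2b1 0 to 1.73 and Sult2a1 0 to 1.05. The SULT2A and SULT3A families, known for bile acids and steroids in liver, were therefore at or near 0 reads in these kidneys.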

How the data were processed

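RNA from 24 mouse kidneys was extracted with RNeasy kits and libraries were prepared with NEBNext Ultra II RNA reagents, according to the labels' protocols. FastQC, STAR, SAMtools, featureCounts and DESeq2 are the tools, and GRCm38.p6 the build, named without versions per the submitters' processing notes. No source used here says whether counting took strand into account.

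The authors deposited a table of signal values, which are gene counts divided by 1 size factor per library (0.740 to 1.31). Multiplying back gave whole reads for 100% of values within 0.001. A second deposited table of the authors holds a mean signal, a shrunken log2 fold change with its standard error and an s-value, a p-value-like measure, for selected genes. Ctrl in a column name was read as Polg+/+, Mut as PolgD257A and SurgBIR as B-IRI. Every comparison rests on this inference.

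Gene symbols, coordinates and exon lengths come from GENCODE M21 on GRCm38, which covers 52083 of the 55416 gene IDs. None of the 64 IDs has the same version there, so the annotation behind the values differs. Coordinates serve for location, and the per-kilobase values rest on exon lengths that may differ from those behind the counts. Sequence sharing counts 75-base words of a gene's exons found in another gene.

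The main test was limma-trend (limma 3.58.1, R 4.3.3) on log2(deposited value + 1) with 1 mean per group over 24 libraries. It was run on all 17430 genes that reached 10 normalized counts in 6 or more libraries. P-values were adjusted by Benjamini-Hochberg within each contrast, and 0.05 was the threshold. The pseudocount of 1 understates changes of low genes. The alternatives tried were leaving out each library, a filter of 50 normalized counts or none, pseudocounts of 0.5 and 5, TMM, quantile normalization, only the libraries compared, a replicate block, robust empirical Bayes, edgeR 4.0.16 and DESeq2 1.42.0 on the recovered reads. The main test was tested on simulated counts for B-IRI against sham in Polg+/+ only, and recovered 28 of 64 genes changed by 0.5 on the log2 scale, 58 of 65 changed by 1 and 66 of 67 changed by 2, with 5 false calls among 17035 unchanged genes. The simulation gave all genes the same dispersion and changed far fewer genes than were called in these data. Its rates may therefore not hold for these data. Read ratios carry exact 95% intervals for counting error only.

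Values in every group were printed for genes averaging 100 normalized counts or more that passed in any contrast, for Gstp3 and for up to 3 lower genes per family with the smallest adjusted p. Per-library ranges went to those with the larger changes. Values of Gsta4, Ugt1a1, Ugt1a2, Ugt1a7c and Ugt2b34 were added after they had been seen. Pathway lists show up to 4 genes with the smallest adjusted p, and 1 gene is not reported here. Members and lists were chosen with earlier results of these data known. Biopython 1.88 aligned the promoter windows, and Python 3.11.15, NumPy 2.4.6, pandas 2.3.3, SciPy 1.17.1 and Matplotlib 3.10.9 served the rest.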

Additional observations from a re-analysis of the deposited data

Results flagged for a closer look

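Among 164 sets of 6 libraries (41 genes in 4 groups), 18 had a highest or lowest library whose gap to the nearest other exceeded Dixon's 95% limit of 0.625 of the range, where chance gives about 1 in 20. Sham Polg+/+ replicate 6 was that library for 6 genes. It held 1146 normalized counts of Gsta4 (others 521 to 725), 1308 of Gsto1 (716 to 827), 35.1 of Ugt1a2 (3.38 to 10.5), 37.3 of Gstp2 (56.1 to 62.7), 5562 of Gstz1 (6541 to 6763) and 12043 of Sult1d1 (15853 to 18072). The first 3 were high and the other 3 low.

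B-IRI PolgD257A replicate 2 was high for Ugt2b37 (1448, others 484 to 728) and for Ugt2b38 (9959, others 4797 to 6489.97). Replicate 1 of that group was low for Gstz1 (2485) and replicate 5 high for Gsta3 (3075). B-IRI Polg+/+ replicate 1 was low for Gsto1 (1156) and high for Gstt2 (4307). In Sham PolgD257A, replicate 2 was low for Gsta2 (2410.2), replicate 6 high for Sult1a1 (405) and replicate 3 high for Ugt2b34 (725). In Sham Polg+/+, replicate 4 was low for Ugt1a8 (7.07), replicate 2 high for Ugt2a3 (46.8) and replicate 3 held the only Ugt1a9 read of the group (1.13 normalized counts).

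By the interaction, the change after B-IRI differed between genotypes for Ugt3a1 (-0.85), Ugt2b38 (-0.76), Ugt3a2 (-0.65), Gstz1 (-0.59), Gstk1 (-0.50), Gstt1 (-0.44) and Sult1c2 (-0.37), on the log2 scale as PolgD257A minus Polg+/+.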

How the results depend on the processing

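Of 88 called results of single genes, 75 kept direction and call under each of the 35 alternatives that could judge them, 13 lost the call under at least 1, and 0 reversed. The 13 were Gsta1 (lost under 7), Gstm1 (1), Gstm4 (9), Gsto1 (6), Ugt1a1 (19), Ugt1a6b (12) and Ugt2b37 (1) between genotypes after B-IRI, Sult1b1 (3), Sult1d1 (1), Sult5a1 (21) and Ugt2a3 (4) for B-IRI in Polg+/+, Ugt2a3 (3) for B-IRI in PolgD257A and the Sult1c2 interaction (19). The fitted change of Ugt1a9 ranged from 1.73 to 5.17 in PolgD257A and from 1.38 to 4.85 in Polg+/+, lowest with a pseudocount of 5.

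The 3 genes higher in PolgD257A after B-IRI became 0 with no filter and 1 with only the libraries compared, and 0 to 3 when single libraries were left out. The 0 positive interactions became 1 (Ugt1a1) under quantile normalization and 0 to 1 when single libraries were left out, the 1 appearing without Sham PolgD257A replicate 5 or B-IRI PolgD257A replicate 3. All other counts stayed within 1.5 times. With a filter of 50 normalized counts, which judges fewer genes, B-IRI against sham gave 10 higher and 15 lower in PolgD257A and 11 and 13 in Polg+/+. 

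Replicate numbers did not pair libraries, since 0, 0, 0 and 2 of 6 same-numbered pairs correlated above 0.1 in the 4 comparisons of 2 groups. With the replicate block the counts higher and lower were 15 and 18 for B-IRI in PolgD257A, 15 and 15 in Polg+/+, 0 and 0 for genotype in sham, 2 and 14 for genotype after B-IRI and 0 and 6 for the interaction. Genes with under 10 counts in most libraries could not be judged at this depth. Shared exons or sequence limit the UGT1A, Gsta1, Gsta2, Gstp2, Ugt2a1 and Ugt2a2 values.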
